A study of Mus musculus with 6 samples.

Results

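A set of 10 genes of oxygenated lipid metabolism was followed in mouse esophageal organoids. They were 5 lipoxygenase genes (Alox15, Alox12, Alox12e, Alox12b and Aloxe3), the helper gene Alox5ap, and 4 genes of prostaglandin turnover (Ptgs1, Ptgs2, Ptges and Hpgd). All 10 were taken by name from the 32285 genes of the deposited tables, and all 10 had at least 1 UMI (unique molecular identifier, a tag that marks 1 captured transcript). Alox15 had been singled out because earlier results of these data showed it lower in 1 of the groups, so its values between the groups are given as a description with no test.

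Esophageal epithelial cells of C57BL6 mice were sorted as integrin-b1 positive, DAPI negative basal cells into a Cyto-ID Low and a Cyto-ID High population, and each population was grown into organoids in Matrigel for 15 days. Cyto-ID is a dye that labels autophagic vesicles. Both groups were grown in the same medium, with EGF, Noggin/R-Spondin-conditioned medium and Y27632, and no other treatment is given in the labels. Each group held 3 droplet libraries, carrying the labels F2, M3 and F6 in both groups. The labels do not say whether a library came from 1 animal or from several, and p-values measure the spread between these libraries.

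After a filter of at least 500 detected genes per cell, 25154 of 26808 barcodes were kept. The median number of UMIs per cell ranged from 1940.5 to 10038 between libraries, and no more than 10 barcodes were shared by any pair of libraries. The epithelial origin was checked against markers of other cell types. The 12 immune markers summed to 28.0 to 48.3 CPM (UMIs scaled to a common cell total, averaged over cells) in Cyto-ID Low and to 30.8 to 49.4 CPM in Cyto-ID High libraries, mostly S100a8 and Cd68, and the defining genes Ptprc, Tyrobp, Adgre1, Siglecf and Cpa3 were at 0 in every library. The 8 mesenchymal markers summed to at most 15.6 CPM, mostly Acta2, and the 6 endothelial markers to at most 0.91 CPM.

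Lipoxygenases add molecular oxygen to polyunsaturated fatty acids such as arachidonic and linoleic acid and leave a lipid hydroperoxide. Alox15, the mouse leukocyte-type 12/15-lipoxygenase, can also act on fatty acids held in membranes, and it is a known target of interleukin 4 and interleukin 13. Cyclooxygenases turn arachidonic acid into prostaglandin H2, from which terminal synthases make the separate prostaglandins. In stratified epithelia these pathways supply both local signals and, in skin, linoleate oxidation for the permeability barrier.

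Alox12, Alox12e and Alox15 lie close together on mouse chromosome 11, and Alox12b and Aloxe3 form a second pair on the same chromosome. In the GRCm38 annotation (GENCODE M21) Alox12 spans chr11:70241457-70255353, Alox12e chr11:70315610-70322628 and Alox15 chr11:70344152-70352031, all on the minus strand. Aloxe3 spans chr11:69125896-69149115 and Alox12b chr11:69156989-69169792, both on the plus strand. The genes could be told apart by their 3′ reads, since 0% of the 91-base windows in the last 500 bases of the members' transcripts matched another gene.

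Promoters from RefSeq (GRCm38.p6) were matched for 7 of the 10 genes, and the 250 bases before the start site are shown for 3 of them. Alox12 is shown as the Alox15 neighbour that was lower in every Cyto-ID High library, Ptgs1 as the member called in basal-like cells, and Ptges as an abundant member whose groups overlapped. The windows are chr11:70255371-70255620 on the minus strand, chr2:36230176-36230425 on the plus strand and chr2:30903298-30903547 on the minus strand. Capitals mark a GC box (GGGCGG) or a STAT motif (TTC and GAA with 4 bases of any kind between them), searched on both strands.
Alox12: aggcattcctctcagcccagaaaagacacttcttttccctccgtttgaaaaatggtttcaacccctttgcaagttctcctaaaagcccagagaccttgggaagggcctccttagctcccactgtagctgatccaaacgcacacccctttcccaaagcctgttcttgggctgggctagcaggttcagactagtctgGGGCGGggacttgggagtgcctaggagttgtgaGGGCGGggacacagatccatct
Ptgs1: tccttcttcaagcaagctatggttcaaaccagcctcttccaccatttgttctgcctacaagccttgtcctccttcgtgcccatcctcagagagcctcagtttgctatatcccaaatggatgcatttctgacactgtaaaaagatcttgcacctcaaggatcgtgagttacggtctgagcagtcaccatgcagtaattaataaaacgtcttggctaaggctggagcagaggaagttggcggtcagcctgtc
Ptges: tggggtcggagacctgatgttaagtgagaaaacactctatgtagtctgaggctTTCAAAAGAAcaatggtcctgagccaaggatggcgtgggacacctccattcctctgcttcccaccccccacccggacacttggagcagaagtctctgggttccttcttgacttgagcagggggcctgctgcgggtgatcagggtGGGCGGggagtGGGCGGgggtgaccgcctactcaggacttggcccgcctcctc
The Alox12 window held 2 GC boxes, the Ptges window 2 GC boxes and 1 STAT motif, and the Ptgs1 window none of the 6 motifs searched. A GC box was found in 32.7% and a STAT motif in 5.85% of 32851 promoter windows of this length. The antioxidant response element, searched as TGACNNNGC, was found in 10.2% of windows. The AP-1 motif, searched as TGANTCA, was in 6.75% of windows. The TATA box of many regulated promoters, TATAAA, was in 12.4% of windows. The box bound by the factor NF-Y, CCAAT, was in 33.8% of windows. No pair of the matches overlapped. These matches are letters in a window and do not show that a factor binds there.

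Alox15 was read in 6914 of the 25154 cells, with 39975 UMIs. Over all cells its level was 344 CPM in F2, 299 CPM in M3 and 338 CPM in F6 of the Cyto-ID Low libraries. In the Cyto-ID High libraries it was 136, 127 and 118 CPM in the same order. The lowest Cyto-ID Low library lay above the highest Cyto-ID High library, and the replicates of each group lay close together. Of all genes tested over all cells, 12.6% had groups without overlap. The means were 327 ± 24.4 and 127 ± 8.74 CPM (SD, n = 3), a difference of -1.24 ± 0.21 on the log2(CPM + 1) scale (Cyto-ID High minus Low, ± SE). In these libraries a lower mean can come from fewer cells of a type or from less RNA per cell, so the level was next read within clusters.

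**Figure D1:**
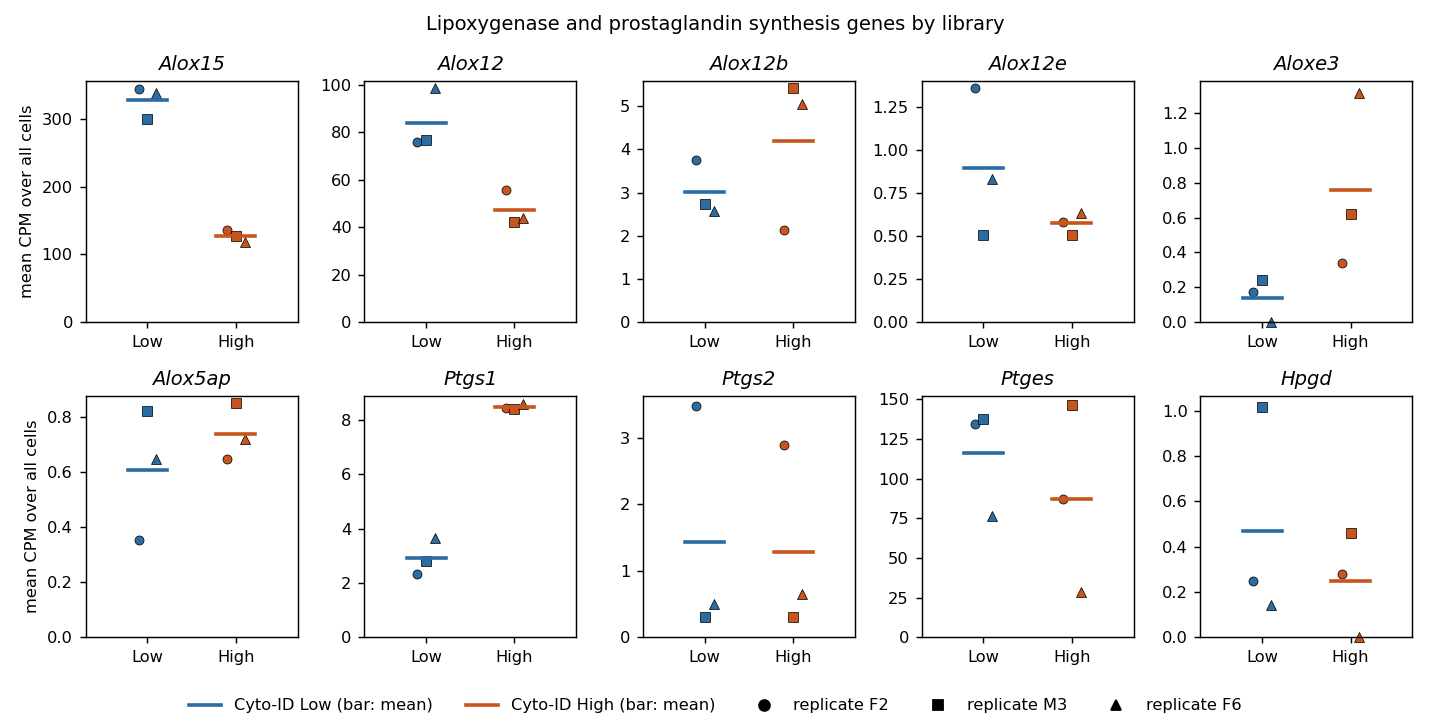
Mean CPM over all cells (vertical axis, linear, from 0) of the 10 genes in each library, with Cyto-ID Low in blue, Cyto-ID High in orange and bars at the group means. Alox15 and Alox12 were lower, and Ptgs1 and the rare Aloxe3 higher, in each of the 3 Cyto-ID High libraries than in any Cyto-ID Low library. Of all genes tested, 12.6% had groups without overlap. Ptgs2 was high in F2 of both groups.

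Clusters were drawn without the 10 genes and without the pathway lists used below, so that cells were not grouped by them. Of 10 clusters, 3 were basal-like (led by Tmem176b, by U90926 and by Igfbp2), 2 proliferating-like (led by Birc5 and by Mcm3), 1 suprabasal-like (led by Calm4, with Krtdap and Sprr1b) and 1 superficial-like (led by Sprr2f). A cluster led by Krt12 (3189 cells), a further one of 3693 cells with Il33, Aldh1a7 and Aldh1a3 in front, and a cluster of 328 cells led by Ifit3b stayed unnamed. The Il33-led cluster scored 0.89 for superficial and 0.82 for suprabasal markers, and more suprabasal than superficial markers were among its leading genes. Names rest on marker scores and are rebuilt here.

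In each of the 6 libraries Alox15 was highest in the Il33-led cluster, at 1006, 966 and 875 CPM (F2, M3 and F6) for Cyto-ID Low and at 542, 515 and 510 CPM for Cyto-ID High. The groups did not overlap there (-0.81 ± 0.28, log2 ± SE). The share of all genes without overlap was counted over all cells only, not within a class or cluster. The Il33-led cluster held 18.7% ± 4.56 of cells and 53.6% ± 7.25 of the Alox15 signal in Cyto-ID Low libraries, and 11.95% ± 0.33 of cells and 49.2% ± 2.80 of the signal in Cyto-ID High libraries (SD, n = 3). The Krt12-led cluster came next in the group means. Its Alox15 levels were 842, 507 and 432 CPM in Cyto-ID Low against 457, 271 and 223 CPM in Cyto-ID High libraries. The Cyto-ID High library was the lower one in all 3 pairs, but F6 of Cyto-ID Low lay under F2 of Cyto-ID High (-0.77 ± 0.30). Together these clusters carried most of the Alox15 signal of every library.

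The suprabasal-like cluster, whose leading genes Calm4 and Krtdap belong to cornification, had the largest ratio of the group means of Alox15 among these classes and clusters. Alox15 was at 385, 253 and 454 CPM in its Cyto-ID Low cells and at 28.6, 40.5 and 23.6 CPM in its Cyto-ID High cells. No library of 1 group came near a library of the other. The cluster was small in Cyto-ID Low libraries, with 67, 196 and 22 cells against 384, 605 and 484 cells in Cyto-ID High libraries, and it was under the minimum of 50 cells in 1 library, so no difference was fitted. Krtdap itself was higher in Cyto-ID High libraries over all cells (limma, adjusted p = 0.0080), and so was Calm4 (adjusted p = 0.0177). With no filter on low values 0% of all genes passed over all cells. The suprabasal markers did not all go this way. Krt20, another of them, was at 309, 231 and 412 CPM in Cyto-ID Low against 119, 137 and 62.2 CPM in Cyto-ID High libraries. Krtdap and Calm4 lead this cluster, which held 2.07% ± 1.34 of cells in Cyto-ID Low against 11.03% ± 2.35 in Cyto-ID High libraries. Whether the differences of Krtdap and Calm4 came with this share, or shaped which cells entered the cluster, was not tested.

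In basal-like cells Alox15 lay under its Il33-led level in every library. It was at 56.5, 29.8 and 34.4 CPM in Cyto-ID Low and at 19.6, 10.1 and 8.94 CPM in Cyto-ID High libraries, without overlap (-1.43 ± 0.29). Proliferating-like cells gave 216, 99.6 and 131 CPM against 61.6, 29.7 and 17.2 CPM, also without overlap (-1.94 ± 0.38). In both classes each Cyto-ID High library lay under every Cyto-ID Low library. The values varied among the 3 clusters of the basal-like class, and a difference between these clusters was not tested. In the U90926-led cluster Alox15 was at 58.3, 38.3 and 25.7 CPM against 26.9, 26.0 and 37.3 CPM, with overlap (-0.33 ± 0.34). The differences were -1.64 ± 0.42 in the Tmem176b-led and -2.59 ± 0.78 in the Igfbp2-led cluster, without overlap in either. The Igfbp2-led cluster, the lowest of the 3 for Alox15 in every Cyto-ID High library, held 137, 259 and 51 basal-like cells in Cyto-ID Low against 561, 550 and 506 in Cyto-ID High libraries, and the part of these numbers in the class difference was not tested.

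Superficial-like cells did not follow this pattern. Their Alox15 levels were 224, 163 and 301 CPM in Cyto-ID Low against 126, 153 and 471 CPM in Cyto-ID High libraries. The highest value was that of Cyto-ID High F6, which had the fewest cells of this class (187), so that the mean was higher in Cyto-ID High (250 ± 192 against 230 ± 69.2 CPM) while the difference of the log2 values was -0.24 ± 0.45. Without Cyto-ID High F2 the log2 difference turned to 0.15, and without Cyto-ID Low F6 to 0.05.

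**Figure D2:**
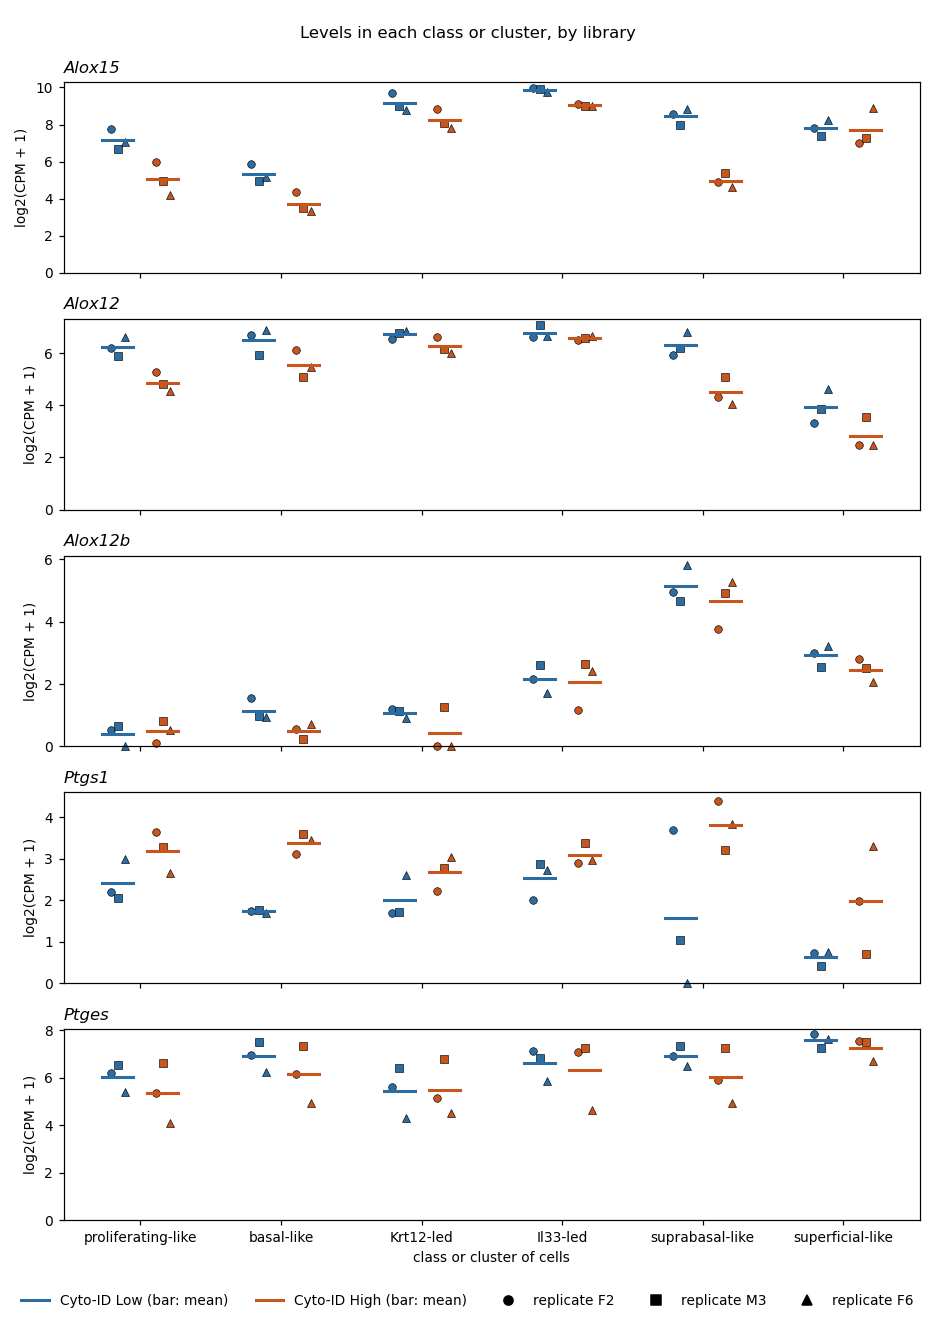
Level as log2(CPM + 1) (vertical axis, from 0) of Alox15, Alox12, Alox12b, Ptgs1 and Ptges in 4 named classes and 2 unnamed clusters (horizontal axis), for each library, with bars at the group means. Alox15 peaked in the Il33-led cluster in both groups, Alox12b peaked in suprabasal-like cells, and the F6 library was the lowest of its group for Ptges in most classes.

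The share of cells with an Alox15 UMI was compared after each cell was thinned to 1000 UMIs, which left out 347 shallower cells. The share was 19.9% ± 1.31 in Cyto-ID Low against 8.44% ± 0.70 in Cyto-ID High libraries (SD, n = 3). Before thinning it was 38.5% ± 3.06 and 17.4% ± 5.54. In the Il33-led cluster it was 49.2%, 55.0% and 49.8% in Cyto-ID Low against 29.9%, 33.1% and 31.99% in Cyto-ID High libraries, with Wilson 95% intervals of 45.2% to 53.3% in Cyto-ID Low F2 and 29.3% to 37.1% in Cyto-ID High M3. Cells of this cluster that had the transcript held 1.87 ± 0.24 Alox15 UMIs in Cyto-ID Low against 1.65 ± 0.13 in Cyto-ID High libraries after thinning. These intervals cover counting error only.

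No class of these epithelial cells is known to lack Alox15, so a share that free RNA alone would give could not be measured, and the clusters of the basal-like class, which as a class had the lowest share in both groups, are given in its place. In the Igfbp2-led cluster the thinned share was 3.68% ± 2.58 in Cyto-ID Low against 0.19% ± 0.19 in Cyto-ID High libraries. It was 3.24% ± 0.91 against 1.09% ± 0.74 in the Tmem176b-led and 3.32% ± 1.13 against 2.17% ± 0.47 in the U90926-led cluster. In Cyto-ID High F6, 1 of 506 cells of the Igfbp2-led cluster had an Alox15 UMI before thinning. The median UMI number of the Igfbp2-led cells was 0.86 of that of their libraries, beside 1.26 in the Il33-led cluster. The shares in the Krt12-led cluster (40.6% ± 9.70 against 21.8% ± 6.77) and in the Il33-led cluster lay far above all of these in both groups.

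**Figure D3:**
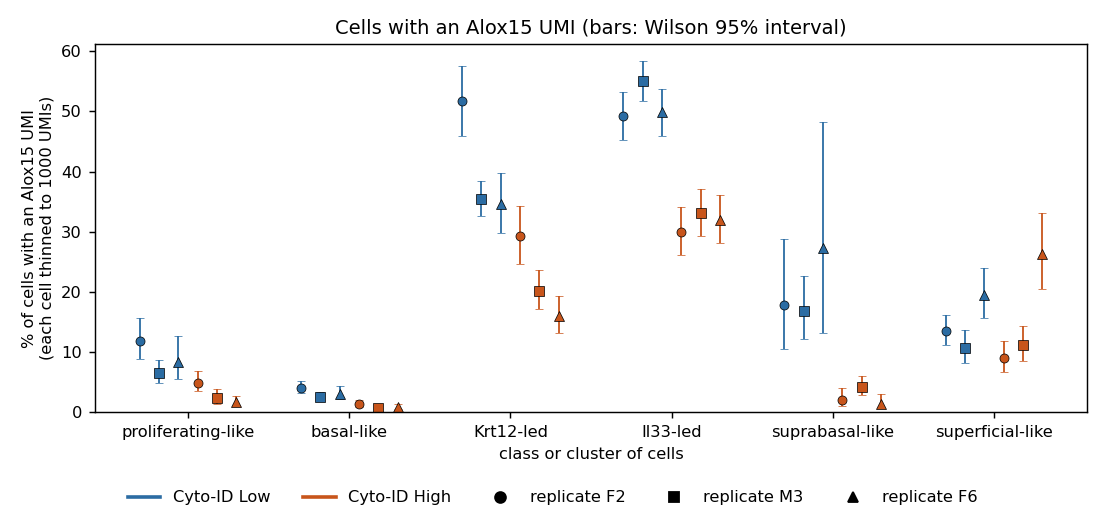
Percent of cells with an Alox15 UMI after thinning to 1000 UMIs per cell (vertical axis) by class or cluster, 1 point per library, with Wilson 95% intervals for counting error. In the Il33-led cluster the Cyto-ID Low libraries sit between 49.2% and 55.0% and the Cyto-ID High libraries between 29.9% and 33.1%.

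The makeup of the libraries moved with the groups as well. When every library was given the same shares of the 9 clusters that each held, the Alox15 levels became 364, 274 and 293 CPM in Cyto-ID Low against 174, 143 and 170 CPM in Cyto-ID High libraries. The groups still did not overlap, and the log2 difference was -0.81 in place of -1.24. The Il33-led share of cells, lower in the Cyto-ID High library of each pair, is among the shares made equal here.

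The genes whose levels were most like those of Alox15 over 57 means of a cluster in a library, among 7026 genes, were Krt20 (Pearson r = 0.885), Spint1 (0.880), Adam28 (0.879), Engase (0.866) and Mcl1 (0.860). Krt20 encodes a keratin, Spint1 an inhibitor of serine proteases at the cell surface, Adam28 a metalloprotease, Engase a glycosidase that acts on N-glycans, and Mcl1 a survival factor of the BCL2 family. The means share libraries, depth and clusters, so r is a description. They also span both groups, so the choice of these genes used the groups, and their levels in each group are given with no test. In the Il33-led cluster Krt20 was at 937, 789 and 992 CPM in Cyto-ID Low and at 442, 474 and 235 CPM in Cyto-ID High libraries. Spint1 was at 326, 278 and 301 against 262, 188 and 146 CPM there. Engase was at 51.5, 52.4 and 59.7 against 38.5, 40.4 and 47.9 CPM. Adam28 overlapped between the groups, at 547, 787 and 401 against 302, 455 and 331 CPM. So did Mcl1, at 765, 643 and 644 against 712, 552 and 421 CPM.

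Alox12, the platelet-type 12-lipoxygenase, was read in 5567 cells. Over all cells it was at 75.9, 76.8 and 98.6 CPM in Cyto-ID Low and at 55.6, 42.4 and 43.7 CPM in Cyto-ID High libraries. The groups did not overlap, but the difference of -0.70 ± 0.21 (log2 ± SE) did not pass (limma, adjusted p = 0.488 over all genes tested). Across all genes tested, 12.6% had groups that did not overlap. In proliferating-like cells Alox12 was at 72.6, 58.9 and 96.4 CPM against 37.7, 27.1 and 22.1 CPM, again without overlap (-1.18 ± 0.26, limma adjusted p = 0.156). In the Il33-led cluster, where Alox15 was highest, the Alox12 levels overlapped, at 97.1, 136 and 100 CPM against 88.8, 93.8 and 101 CPM.

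The Alox12 signal was spread over the layers. Basal-like cells carried 44.3% ± 11.5 of its signal in Cyto-ID Low against 39.7% ± 11.2 in Cyto-ID High libraries, close to their share of cells (40.05% ± 0.75 and 39.2% ± 2.64). Among the named classes Alox12 was lowest in superficial-like cells, at 9.09, 13.7 and 23.4 CPM in Cyto-ID Low and at 4.61, 10.7 and 4.56 CPM in Cyto-ID High libraries. Within the basal-like class, the Igfbp2-led cluster stood out. Alox12 was at 42.0, 28.3 and 52.5 CPM in its Cyto-ID Low cells and at 8.42, 1.93 and 5.62 CPM in its Cyto-ID High cells (-2.55 ± 0.59, limma adjusted p = 0.287). That cluster had 137, 259 and 51 cells in Cyto-ID Low against 561, 550 and 506 cells in Cyto-ID High libraries.

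Alox12e, an epidermal 12-lipoxygenase of the mouse, was rare, with 113 UMIs in 86 cells. It was at 1.36, 0.51 and 0.83 CPM in Cyto-ID Low and at 0.58, 0.51 and 0.63 CPM in Cyto-ID High libraries, which overlapped. It did not reach the minimum for a test (1 CPM in at least 3 libraries) over all cells. In proliferating-like cells it was at 2.92, 1.95 and 2.87 CPM against 0.64, 0.31 and 1.48 CPM (-0.91 ± 0.43, limma adjusted p = 0.612).

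Alox12b (12R-lipoxygenase) and Aloxe3 (eLOX3) act in sequence on linoleate in the ceramides of the skin barrier. Alox12b had 713 UMIs in 367 cells. In suprabasal-like cells it was at 29.7, 24.4 and 55.8 CPM in Cyto-ID Low and at 12.6, 29.2 and 37.5 CPM in Cyto-ID High libraries, with overlap, and no library exceeded 8.27 CPM in superficial-like, 5.24 CPM in Il33-led or 1.90 CPM in basal-like cells. Superficial-like cells held the largest part of the Alox12b signal in the Cyto-ID Low mean (31.8% ± 13.9). Suprabasal-like cells held 21.3% ± 8.54 of the Alox12b signal in Cyto-ID Low against 68.3% ± 14.6 in Cyto-ID High libraries, alongside 2.07% ± 1.34 and 11.03% ± 2.35 of cells. Over all cells Alox12b was at 3.74, 2.75 and 2.57 CPM against 2.14, 5.42 and 5.04 CPM (0.41 ± 0.33, limma adjusted p = 0.763). With equal cluster shares the difference had the other sign, at -0.38.

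Aloxe3 was rarer still, with 82 UMIs in 65 cells, and was not tested over all cells or within a class. It entered only the comparison of suprabasal-like with basal-like levels described below (0.90 ± 0.56, limma adjusted p = 0.820). Over all cells it was at 0.17, 0.24 and 0 CPM in Cyto-ID Low and at 0.34, 0.62 and 1.32 CPM in Cyto-ID High libraries, which did not overlap. In Cyto-ID Low F6 it was in 0 of 2667 cells, which allows a share of cells with a UMI of up to 0.112% and, for so low a transcript in a shallow library, does not limit the share of cells that express it. Suprabasal-like cells gave 4.34, 2.51 and 0 CPM against 2.98, 3.42 and 7.94 CPM, with overlap. Suprabasal-like cells held 72.5% ± 6.58 of the Aloxe3 signal in Cyto-ID High libraries. In Cyto-ID Low libraries, where few cells are of this class, it held 41.6% ± 8.12 of the Aloxe3 signal over the 2 libraries that had any, and in M3 basal-like cells held more of it.

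The partners of these barrier enzymes came from a list of 12 genes, of which 9 were tested. Over all cells none passed, 7 of 9 differences were above 0, and the median was 0.44 on the log2 scale beside 0.0049 over all genes tested. In basal-like cells all 9 were above 0 and 2 of 9 passed, where 0.258% of all genes passed. In the Il33-led cluster 4 were above and 5 below 0, with a median of -0.037 and no call. The 2 calls in basal-like cells were Abca12, the transporter that loads lipids into lamellar granules, and Cyp4f39, which hydroxylates very long fatty acids. In basal-like cells Abca12 was at 3.10, 2.10 and 3.13 CPM in Cyto-ID Low and at 14.9, 9.26 and 25.2 CPM in Cyto-ID High libraries (2.26 ± 0.37, limma adjusted p = 0.0438). Cyp4f39 was there at 0.77, 0.90 and 0.60 CPM against 4.74, 6.87 and 3.48 CPM (1.86 ± 0.30, limma adjusted p = 0.0438). Cyp4f39 reached the minimum of 1 CPM in 3 libraries only through Cyto-ID High, so its call is no support for a rise. Both calls were lost with no filter on low values and with no integration, where 0% of all genes passed in basal-like cells. A replicate block brought Abca12 (limma adjusted p = 0.0221) and Elovl4 (limma adjusted p = 0.0246), an elongase of very long fatty acids, past the threshold over all cells, where 0.55% of all genes passed with the block.

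Ptgs1 encodes cyclooxygenase 1, the constitutive enzyme that makes prostaglandin H2. It was a low transcript, with 863 UMIs in 747 cells. Over all cells it was at 2.34, 2.80 and 3.65 CPM in Cyto-ID Low and at 8.44, 8.42 and 8.58 CPM in Cyto-ID High libraries. The groups did not overlap, and the Cyto-ID High libraries lay close together although their depths differed widely. The difference of 1.38 ± 0.22 missed the threshold in the fit without a block (limma, adjusted p = 0.065) and passed with the replicate labels as a block (adjusted p = 0.0257). Over all cells 0 of the 4 other members tested passed without the block (2 of 4 had an unadjusted p under 0.05) and 1 of 4, Ptgs1, passed with it. Of all genes, 0.163% passed without and 0.55% with the block.

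In basal-like cells Ptgs1 rose. It was at 2.35, 2.42 and 2.21 CPM in Cyto-ID Low and at 7.65, 11.03 and 10.05 CPM in Cyto-ID High libraries (1.80 ± 0.27, limma adjusted p = 0.0319, higher in 3 of 3 pairs). It was the 1 call among 4 other members tested, where 0.258% of all genes passed. The block left the same 1 call (limma adjusted p = 0.0072), with 1.04% of all genes called. The call rests on 56 UMIs in Cyto-ID Low against 211 in Cyto-ID High basal-like cells. It held only when Cyto-ID High M3 was the library left out (adjusted p = 0.0367). Without any other library the adjusted p lay between 0.0541 and 0.203, with differences from 1.71 to 2.01. The call was also lost with no filter on low values (limma adjusted p = 0.239) and with cells thinned to 1000 UMIs (0.0844). It was lost as well with at least 1000 genes per cell (0.244) and with no integration (0.9995), and was kept under the remaining alternatives. With no filter and with no integration 0% of all genes passed in basal-like cells. The share was 0.25% with thinned cells and 0.104% with at least 1000 genes per cell.

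The basal-like clusters differed in their Ptgs1. The Igfbp2-led cluster had the highest level, at 15.0, 16.4 and 17.9 CPM in Cyto-ID High libraries and at 7.68, 2.93 and 0 CPM in Cyto-ID Low libraries, which hold few cells of it. In the Tmem176b-led cluster, the largest, Ptgs1 was at 1.66, 2.70 and 3.32 CPM against 4.36, 8.41 and 5.16 CPM, without overlap (1.07 ± 0.36, limma adjusted p = 0.997). In the U90926-led cluster it was at 1.95, 1.45 and 0 CPM against 4.45, 8.10 and 13.0 CPM, again without overlap (2.25 ± 0.64, limma adjusted p = 0.988). The share of the Igfbp2-led cluster moved with the groups, and its part in the basal-like difference was not tested. With equal shares of the 9 clusters over all cells the Ptgs1 difference was 1.21.

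Outside basal-like cells neither Ptgs1, in the classes and clusters where it was tested, nor another tested member passed, with or without the block. Without it, 0.223% of all genes passed in proliferating-like, 0.00894% in Krt12-led, 0.00911% in Il33-led and 0.0196% in superficial-like cells, and with it 0.326%, 0.0179%, 0.0547% and 0.0196%. In proliferating-like cells it was at 3.58, 3.16 and 6.94 CPM against 11.5, 8.67 and 5.27 CPM, with overlap (limma adjusted p = 0.535). In the Il33-led cluster it was at 3.03, 6.29 and 5.64 CPM against 6.49, 9.40 and 6.87 CPM (0.59 ± 0.38, limma adjusted p = 0.997). The difference between these layers was tested as the Il33-led minus the basal-like level of each library. It was -1.21 ± 0.28 for Ptgs1 (limma adjusted p = 0.467), so a difference between layers was not shown. No gene passed in this comparison, nor in those of the Krt12-led and superficial-like cells with basal-like cells, and the share of all genes called was 0%. The same held for suprabasal-like cells, where the minimum of 50 cells was not applied and Cyto-ID Low F6 entered with 22 cells.

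**Figure D4:**
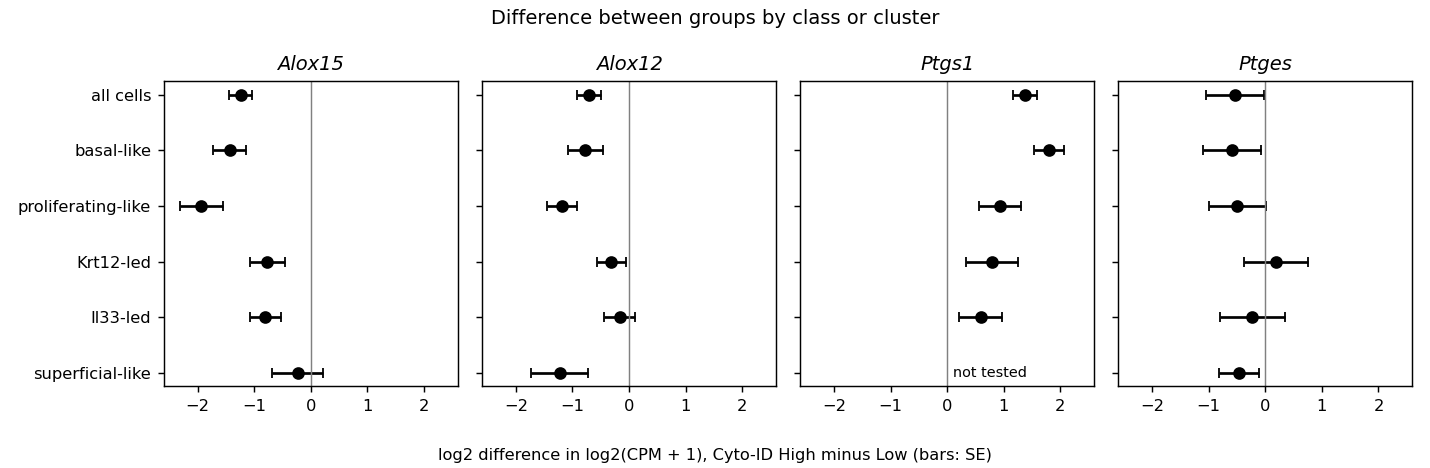
Difference between groups (Cyto-ID High minus Low, horizontal axis, on the log2(CPM + 1) scale, bars are SE) of Alox15, Alox12, Ptgs1 and Ptges over all cells and within each class or cluster with at least 50 cells in every library. Alox15 and Alox12 lie at or below 0 and Ptgs1 above it in each row fitted, Ptges lies on both sides of 0, and only Ptgs1 in basal-like cells passed the test among the 3 genes tested.

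Ptgs2 encodes cyclooxygenase 2, the inducible enzyme. It had 256 UMIs in 174 cells and was not tested over all cells. Its level was 3.47 CPM in F2, 0.31 CPM in M3 and 0.51 CPM in F6 of Cyto-ID Low, and 2.89, 0.30 and 0.65 CPM in Cyto-ID High libraries. The F2 libraries of both groups stood above the other 4, and the groups overlapped. The U90926-led basal-like cluster carried the highest values, at 13.5 CPM in Cyto-ID Low F2 and 12.2 CPM in Cyto-ID High F2.

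Ptges encodes microsomal prostaglandin E synthase 1, which turns prostaglandin H2 into prostaglandin E2. It was read in 7822 cells with 15453 UMIs. Over all cells it was at 135, 138 and 76.4 CPM in Cyto-ID Low and at 87.1, 146 and 28.3 CPM in Cyto-ID High libraries. F6 was the lowest library of each group, and the groups overlapped (-0.53 ± 0.52, limma adjusted p = 0.802). Without Cyto-ID High F6 the difference was 0.06, and without Cyto-ID High M3 it was -1.10. The superficial-like class had the highest Ptges level of the named classes in 5 of the 6 libraries, at 231, 150 and 200 CPM against 188, 184 and 103 CPM. Among the basal-like clusters the U90926-led cluster was the highest, at 176, 304 and 146 CPM against 125, 286 and 72.7 CPM. Ptges was not called in any class.

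Hpgd, the dehydrogenase that inactivates prostaglandins, and Alox5ap, which presents arachidonic acid to 5-lipoxygenase, were near the detection limit. Hpgd had 65 UMIs in 58 cells, at 0.25, 1.01 and 0.14 CPM in Cyto-ID Low and at 0.28, 0.46 and 0 CPM in Cyto-ID High libraries. Alox5ap had 95 UMIs in 90 cells, at 0.35, 0.82 and 0.65 CPM against 0.65, 0.85 and 0.72 CPM. Both overlapped between groups and were not tested over all cells. Alox5ap reached the test in basal-like cells (0.39 ± 0.35, limma adjusted p = 0.845) and proliferating-like cells (-0.37 ± 0.40, limma adjusted p = 0.821).

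The enzymes around these members were counted from further lists. Of 28 other eicosanoid enzymes, 17 were tested over all cells and none passed without a block, with 12 differences above and 5 below 0 and a median of 0.17. With the block 2 of 17 passed, where 0.55% of all genes did. Ptgr1, a reductase that inactivates leukotriene B4 and prostaglandins, was at 65.5, 116 and 61.7 CPM in Cyto-ID Low and at 153, 271 and 134 CPM in Cyto-ID High libraries (1.29 ± 0.17 with the block, limma adjusted p = 0.0300, 0.388 without it). Cbr3, a carbonyl reductase, was at 21.5, 37.8 and 17.2 CPM against 52.5, 90.3 and 41.7 CPM (1.35 ± 0.15 with the block, limma adjusted p = 0.0219, 0.381 without it). The same pair passed with the block in basal-like cells, where 1.04% of all genes did, and in proliferating-like cells, where 0.326% did, and in each class both were higher in 3 of 3 pairs.

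Over all cells, genes of fatty acid supply and of eicosanoid reception gave no calls. Of 20 phospholipase and fatty acid supply genes, 14 were tested over all cells, with 5 differences above and 9 below 0 and a median of -0.16. Fabp5, a fatty acid carrier, had the highest level among them, at 3595, 11377 and 5348 CPM in Cyto-ID Low and at 8421, 25714 and 13433 CPM in Cyto-ID High libraries (1.36 ± 0.60, limma adjusted p = 0.62). Fads2, a desaturase, differed by -0.12 ± 0.18. Of 21 eicosanoid receptor and transporter genes found, 7 were tested, with 5 differences above and 2 below 0. The highest were Ppard, a nuclear receptor for fatty acids, with a difference of 0.02 ± 0.20, and Ltb4r1, a leukotriene B4 receptor, with 0.36 ± 0.36. Of 12 genes that handle lipid peroxides, 11 were tested, with 6 differences above and 5 below 0, and the highest were Gpx2 (0.55 ± 0.53) and Prdx6 (0.00 ± 0.40). With the block 0 genes of these 3 lists passed over all cells.

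Alox15 is known as a target of interleukin 4 and 13, so a list of genes around that pathway was counted as well. The list also took in Tslp and the alarmin Il33. Of the 23 list genes found, 12 were tested over all cells, and all 12 differences lay below 0 with a median of -0.23. None passed, with or without the block. All 12 were below 0 in proliferating-like cells too (median -0.27), and 11 of 12 in basal-like cells (median -0.29). Elsewhere there were 3 above and 9 below 0 in Krt12-led cells, 4 above and 8 below in Il33-led cells, and 6 above and 5 below with a median of 0.046 in superficial-like cells. The highest levels were those of Arg1 (arginase 1), at 3068, 1724 and 2891 CPM in Cyto-ID Low and at 1444, 1151 and 845 CPM in Cyto-ID High libraries (-1.03 ± 0.34, limma adjusted p = 0.53), and of Il33, an alarmin, at 181, 182 and 234 CPM against 77.5, 97.0 and 121 CPM (-0.91 ± 0.28, limma adjusted p = 0.50). The cluster that Il33 leads held 18.7% ± 4.56 of cells in Cyto-ID Low against 11.95% ± 0.33 in Cyto-ID High libraries. The part of this share in the Il33 difference was not tested. In proliferating-like cells 1 of 12 passed the threshold, Arg1, where 0.223% of all genes passed. It was there at 501, 304 and 446 CPM in Cyto-ID Low against 95.9, 66.2 and 77.2 CPM in Cyto-ID High libraries (-2.17 ± 0.25, limma adjusted p = 0.0055). With no filter on low values this call was lost, and 0% of all genes passed in proliferating-like cells. In basal-like cells Arg1 passed with the block alone (limma adjusted p = 0.0307, 0.429 without it), at 505, 221 and 469 CPM against 251, 86.9 and 87.9 CPM, with overlap, where 1.04% of all genes passed with the block. Over all cells 49.4% of all genes tested had a difference below 0. The list was chosen with earlier results of these data known and is no independent evidence of its direction.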

How the data were processed

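Per the submitters' processing notes, Cell Ranger 6.0.0, Seurat 4 and the builds mm10 and GRCm38 were used; other steps are not given in the sources used here. The authors deposited 1 table per library; from the values, the deposited unit is the natural log of 1 plus the UMI count per 10000 UMIs of a cell, and 100% of values were whole multiples of 1 UMI within 1e-06. For tests, each library's mean CPM over cells was scaled by TMM factors and entered as log2(CPM + 1) into limma 3.58.1 (R 4.3.3), with a mean-variance trend, Benjamini-Hochberg adjustment over all genes that reached 1 CPM in 3 or more libraries, and a threshold of 0.05, as Cyto-ID High minus Low. Folds of low genes are understated on this scale. A count test was planned in case raw counts were given. The tables hold logs, and although UMIs were recovered from them, limma was used and no count model was run. On simulated data, 56% of genes changed by 1 log2 unit and 100% of those changed by 2 were recovered over all cells. The changed genes were drawn above a minimum mean level, with the same spread set for all genes and no pairing. These rates therefore do not cover the rarer members or a single class.

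Cells were clustered with Seurat 5.3.0 (2000 variable genes, 30 principal components, integration over libraries, resolution 0.5) and named from fixed markers by a score. No doublet caller was relied on; leaving out the 5% of cells with the most UMIs was an alternative. Deviations from the group means correlated between same-labelled libraries at 0.76 (F2), 0.58 (M3) and 0.15 (F6), over 8878 genes, so the labels in the titles were taken as pairs. Low F2 with High F6 gave 0.17, above the F6 pair's own value, and the other 5 unlike pairs lay below 0. Deviations from a group mean sum to 0 within the group. Values below 0 for unlike pairs are therefore partly fixed in advance and add no support for the pairing. The members and lists were chosen with earlier results of these data known. All members were named; from each list, genes past the threshold (at most 5), otherwise the 2 of highest CPM. Genes like Alox15 needed a mean of at least 10 CPM.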

Additional observations from a re-analysis of the deposited data

How the results depend on the processing

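The Alox15 difference over all cells (-1.24) kept its direction under every alternative run. It was -1.45 on summed UMIs, -1.46 with at least 1000 genes per cell and -0.81 with the same cluster shares in every library, and it ranged from -1.32 to -1.18 when 1 library was left out. Without integration it was -0.76 in basal-like and -0.62 in Il33-led cells. Leaving out 1 library gave -1.67 to -1.20 in basal-like, -2.33 to -1.58 in proliferating-like, -0.97 to -0.53 in Krt12-led and -0.87 to -0.69 in Il33-led cells. In superficial-like cells the range was -0.76 to 0.15, and the sign turned without Cyto-ID High F2 (0.15) and without Cyto-ID Low F6 (0.05). The count of other members past the threshold over all cells was 0, and 1 with the replicate block. In basal-like cells it was 1, and 0 with no filter on low values, with cells thinned to 1000 UMIs, with at least 1000 genes per cell and with no integration. It was 0 to 1 when 1 library was left out. The corresponding adjusted p of Ptgs1 was 0.239, 0.0844, 0.244 and 0.9995 (limma), and its difference stayed between 1.54 and 2.22. The cause of the lost calls was not tested. With no filter and with no integration 0% of all genes passed in basal-like cells. Among the members tested, which leave out Alox15, the replicate block changed no call but that of Ptgs1 over all cells. Signs turned in 21 of 723 recomputed values, of which 19 were differences that passed neither before nor after. A further 677 values were counted as unchanged. For a tested difference that meant the same sign and side of the threshold. For Alox15 it meant a shift under the residual SD, and for a count of members an equal or similar count. The 5 values that moved further but kept their sign were those of Alox15. With cells thinned to 1000 UMIs the turned values were 0.37 for Alox12e and -0.56 for Ptgs2 in proliferating-like cells and 0.41 for Alox12b in superficial-like cells. With at least 1000 genes per cell they were -0.25 for Ptges in Krt12-led and 0.21 for Alox12b in superficial-like cells. Without the 5% deepest cells they were -0.077 for Ptgs2 in proliferating-like and 0.087 for Alox12b in Il33-led cells. At Louvain resolution 1 Alox12b was 0.041, and without integration Ptgs1 was -0.53, both in Il33-led cells. When 1 library was left out, Ptges ranged from -1.10 to 0.064 over all cells, from -1.13 to 0.074 in proliferating-like, from -0.50 to 0.69 in Krt12-led and from -0.76 to 0.54 in Il33-led cells. Ptgs2 then ranged from -0.20 to 0.45 in proliferating-like cells, and in Il33-led cells Alox12 from -0.30 to 0.018 and Alox12b from -0.35 to 0.53. Depth limits Hpgd, Alox5ap, Aloxe3 and Alox12e, whose levels lay at or under about 1 CPM in most libraries, and the suprabasal-like class in Cyto-ID Low F6 rests on 22 cells.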
